A study of Mus musculus with 8 samples.

Results

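Foxq1 and 9 other forkhead transcription factors of liver were followed across livers with and without a deletion of Pkd1l1. The 10 genes are Foxq1, Foxa1, Foxa2, Foxa3, Foxp1, Foxp2, Foxk1, Foxk2, Foxn3 and Foxj3, 10 of the 27110 genes in the deposited table. They were chosen by name with the measured result of Foxq1 in the comparison of genotypes already known, so their differences between the genotypes are given as a description, without p-values. How many of them passed the test run on all genes is counted once, beside the share of all genes, and supports nothing here. The authors' deposited table marks 30 rows as forkhead family, which are these 10, 19 other named forkhead genes and the predicted gene Gm5294.

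Total RNA of 8 mouse livers was sequenced at week 7, and all 8 livers are labelled NT in the treatment field. The 4 LKO livers carried a liver-restricted deletion of Pkd1l1, a gene of the polycystin family of membrane proteins, and came from females (replicates 3, 4, 12 and 13). The 4 Fl/Fl livers served as controls, 3 from females (replicates 5, 7 and 9) and 1 from a male (replicate 10). Which Cre driver removed the gene is not given. The cell type label names hepatocytes and cholangiocytes, and the libraries hold RNA of the whole organ: hepatocyte markers summed to 126874 to 141392 CPM (read counts scaled to library size) in LKO, 137043 to 142836 CPM in Fl/Fl females and 101028 CPM in the Fl/Fl male. Markers of macrophages and Kupffer cells summed to 383 to 478 CPM in LKO, 331 to 499 CPM in Fl/Fl females and 350 CPM in the Fl/Fl male. Fewer cells of a type and less RNA per cell cannot be told apart in such samples.

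The libraries held 71491723 to 76622375 counted reads, and all 10 genes were among the 16420 with enough reads to test. At this depth 3 reads are worth 0.0385 to 0.0428 CPM per library, which covers counting error only. Each log2 fold change below sets LKO over female Fl/Fl and carries its standard error, from a fit with terms for genotype and sex in which the male library carries no weight in the genotype effect. Separate litters or preparations are not stated in the labels, and p-values therefore reflect only how these libraries vary, which may be technical. Pkd1l1 could not check the genotypes, with 0, 0, 0 and 2 reads in LKO 3, 4, 12 and 13 and 0, 1, 1 and 0 reads in Fl/Fl 5, 7, 9 and 10.

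Forkhead proteins share a winged-helix domain that binds DNA. The Foxa proteins are pioneer factors, able to bind their sites in closed chromatin, and are needed for liver development and for hepatocyte gene expression. Foxq1 has been linked to hepatic glucose metabolism and to epithelial plasticity in tumours, and it does not belong to the Foxa group.

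The promoters of the 3 Foxa genes are shown because these close relatives differed from one another in the comparison of genotypes. The sequences are RefSeq promoters of build GRCm38.p6, from 250 bases before the start of transcription to 50 after it, all on the minus strand and written 5′ to 3′. Capitals mark the match to the forkhead core TGTTTAC or its reverse complement GTAAACA, and Foxa2 is shown by the most upstream of its 3 listed starts. The windows are chr12:57546062-57546361 for Foxa1, chr2:148046920-148047219 for Foxa2 and chr7:19023490-19023789 for Foxa3.
Foxa1: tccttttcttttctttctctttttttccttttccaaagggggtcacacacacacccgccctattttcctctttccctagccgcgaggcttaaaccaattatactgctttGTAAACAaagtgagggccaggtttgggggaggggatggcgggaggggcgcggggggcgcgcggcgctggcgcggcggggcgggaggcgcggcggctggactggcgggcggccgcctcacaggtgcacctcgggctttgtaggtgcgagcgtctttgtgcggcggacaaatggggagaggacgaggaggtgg
Foxa2: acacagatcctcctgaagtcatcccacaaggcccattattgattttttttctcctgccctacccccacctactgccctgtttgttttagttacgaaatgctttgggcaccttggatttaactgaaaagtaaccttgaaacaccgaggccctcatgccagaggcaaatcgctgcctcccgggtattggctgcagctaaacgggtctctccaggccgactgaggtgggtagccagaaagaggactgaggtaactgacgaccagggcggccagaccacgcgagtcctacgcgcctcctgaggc
Foxa3: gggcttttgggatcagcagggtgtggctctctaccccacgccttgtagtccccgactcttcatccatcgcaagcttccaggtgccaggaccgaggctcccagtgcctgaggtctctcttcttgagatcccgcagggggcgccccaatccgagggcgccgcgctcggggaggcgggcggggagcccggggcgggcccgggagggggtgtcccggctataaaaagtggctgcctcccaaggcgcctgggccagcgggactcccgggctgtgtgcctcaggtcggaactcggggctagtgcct
The Foxa1 window holds a forkhead match that begins 141 bases before the start. The Foxa2 and Foxa3 windows hold none of these letters. The Foxa1 window lies inside the counted Foxa1 gene, which reaches 57546916 on its 5′ side, so the start used is not its outermost.

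Over all 10 genes, 7 had an entry in the promoter table, with 11 windows between them; Foxq1, Foxp2 and Foxk1 had none. The Foxa1 window was the 1 of 11 with the forkhead core, which is in 3.65% of 32851 mouse promoter windows of the same length, searched on both strands. The AP-1 element TGANTCA is in 7.81% of all windows and the STAT element TTCNNNGAA in 8.3%. Among the 11 windows each occurs in 1, the Foxn3 window, as TGACTCA and TTCACTGAA. That window, chr12:99450025-99450324, lies inside the counted Foxn3 gene, which reaches 99563582 on its 5′ side. The E-box CACGTG is in 7.15% of all windows and in 0 of the 11. These motifs were picked after the data had been seen, and a match describes the letters only.

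Foxq1, a transcription factor gene with 1 exon (ENSMUSG00000038415, chromosome 13, 31556134 to 31560976, plus strand, mm10), was low in every LKO liver. It stood at 4.61, 8.94, 6.56 and 7.38 CPM in LKO 3, 4, 12 and 13, against 41.3, 25.4 and 55.7 CPM in the female Fl/Fl livers 5, 7 and 9 and 21.0 CPM in the male Fl/Fl liver. The groups did not overlap: the lowest Fl/Fl value, that of the male, was 2.36 times the highest LKO value. The read numbers behind these levels were 350 to 647 in LKO, 1979 to 4266 in Fl/Fl females and 1476 in the Fl/Fl male.

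The mean of Foxq1 was 6.87 ± 1.80 CPM in LKO (SD, n = 4) and 40.8 ± 15.1 CPM in female Fl/Fl (SD, n = 3), so that LKO livers held 5.94-fold less (log2 -2.57 ± 0.31). Among 12337 tested genes with a mean of at least 1 CPM, this log2 fold change ranked 7 from the lowest. The authors' deposited table gives a log2 fold change of -2.39 for Foxq1. The fit here without a sex term, in which the male library counts, gave -2.38. Fl/Fl livers differed among themselves 2.64-fold from highest to lowest and LKO livers 1.94-fold. The log2 fold change was negative under each of the 20 alternative settings, from -3.61 to -1.94. The fit on the female libraries alone and the fit without the male library are identical, and both are counted among the 20.

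A limit of the count lies in the locus itself. In the GENCODE M21 annotation the Foxq1 exon shares 3200 of its 4843 bases with the opposite-strand gene A530084C06Rik, which has no row in the data used here. Whether reads were counted by strand is not stated, so those of the 2 genes cannot be told apart. The neighbouring forkhead gene Foxc1, a factor of mesenchymal and vascular development (chromosome 13, 31806633 to 31812476), was barely detected, at 0.26 ± 0.11 CPM in LKO and 0.22 ± 0.05 CPM in female Fl/Fl livers. Foxf2, the other forkhead neighbour, has no row in the data used here.

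**Figure D1:**
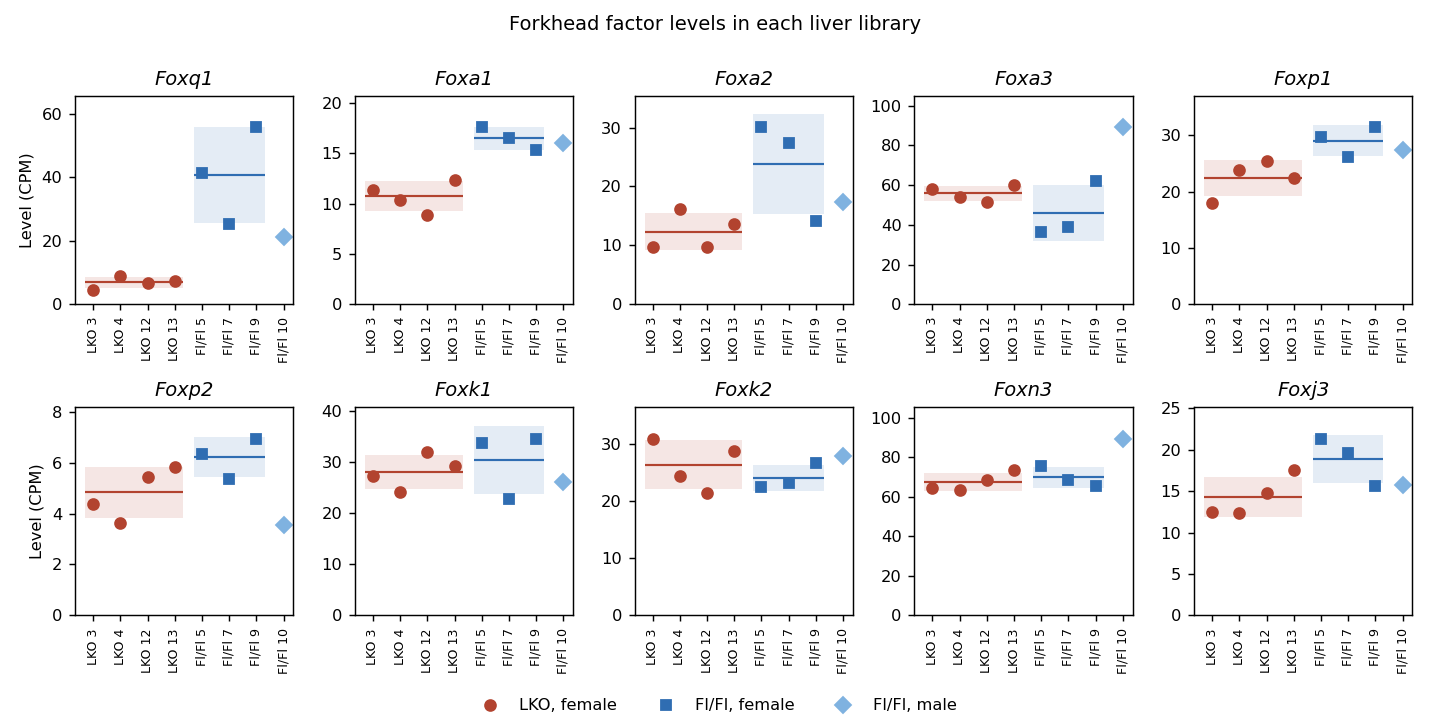
Level in CPM (vertical axes, each from 0) of the 10 forkhead genes in each library, with LKO as circles, female Fl/Fl as squares and the male Fl/Fl as a diamond; lines and bands are the mean ± SD of the 4 LKO and the 3 female Fl/Fl libraries. Foxq1 separates the genotypes most widely, at 4.61 to 8.94 CPM in LKO and 21.0 to 55.7 CPM in Fl/Fl.

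The Foxa genes did not move together. Foxa1 (chromosome 12, 57540628 to 57546916) stood at 11.4, 10.4, 8.91 and 12.3 CPM in LKO 3, 4, 12 and 13, against 17.6, 16.5 and 15.3 CPM in Fl/Fl 5, 7 and 9 and 16.1 CPM in the male Fl/Fl liver. All LKO values lay below all Fl/Fl values, the lowest Fl/Fl value being 1.24 times the highest LKO value. The means were 10.8 ± 1.47 CPM in LKO and 16.5 ± 1.12 CPM in female Fl/Fl (log2 -0.61 ± 0.12), and the authors' deposited table gives -0.61. The log2 fold change was negative in all 20 alternatives, from -0.69 to -0.50.

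Foxa2, a pioneer factor of endoderm whose product also acts in fasting metabolism of the liver (chromosome 2, 148042877 to 148046969), was more uneven. It stood at 9.68, 16.2, 9.75 and 13.6 CPM in LKO 3, 4, 12 and 13, against 30.0, 27.3 and 14.1 CPM in Fl/Fl 5, 7 and 9 and 17.3 CPM in the male. Fl/Fl 5 and 7 lay above every other library, while Fl/Fl 9 fell inside the LKO range. The means were 12.3 ± 3.17 CPM in LKO and 23.8 ± 8.55 CPM in female Fl/Fl (log2 -0.95 ± 0.30). The log2 fold change was -1.23 without Fl/Fl 9 and -0.20 with Fl/Fl 5 and 7 both left out.

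Foxa3, the most abundant of the Foxa genes in adult liver RNA here (chromosome 7, 19013284 to 19023538), overlapped between the genotypes. It stood at 58.1, 54.0, 51.3 and 59.9 CPM in LKO 3, 4, 12 and 13, against 36.5, 39.1 and 62.2 CPM in Fl/Fl 5, 7 and 9 and 89.1 CPM in the male. The LKO livers lay between the low Fl/Fl livers 5 and 7 and the high Fl/Fl livers 9 and 10. The means were 55.8 ± 3.89 CPM in LKO and 45.9 ± 14.1 CPM in female Fl/Fl (log2 0.28 ± 0.17). The direction depended on the libraries: the log2 fold change was 0.56 without Fl/Fl 9 and -0.16 with Fl/Fl 5 and 7 both left out. It was -0.02 without a sex term and -0.30 with an immediate early term. The authors' deposited table gives -0.03 for Foxa3.

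The 3 Foxa genes can be set against one another per gene length, in FPKM (fragments scaled to gene length and library size). Their summed level was 37.2 ± 3.07 FPKM in LKO and 39.0 ± 3.37 FPKM in female Fl/Fl livers, and 58.2 FPKM in the male. Foxa1 and Foxa2 together made 8.74 ± 1.58 FPKM in LKO and 15.6 ± 4.02 FPKM in female Fl/Fl, and 12.6 FPKM in the male. The sum of all 3 differed between LKO and female Fl/Fl by less than the SD of either group, whereas the Foxa1 and Foxa2 sum was below every Fl/Fl value in each LKO liver (at most 10.3 FPKM in LKO, at least 11.01 in Fl/Fl).

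Foxa3 made up 79.2, 72.7, 78.8 and 75.7% of the summed Foxa FPKM in LKO 3, 4, 12 and 13. In Fl/Fl 5, 7 and 9 its share was 49.96, 53.8 and 74.3%, and in the male 78.3%. Fl/Fl 5 and 7 therefore stood apart, and Fl/Fl 9 and the male lay within the LKO range. The share of Foxa2 was 14.4 ± 3.20% in LKO and 27.4 ± 11.3% in female Fl/Fl. That of Foxa1 was 8.999 ± 0.620% in LKO and 13.3 ± 1.83% in female Fl/Fl.

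**Figure D2:**
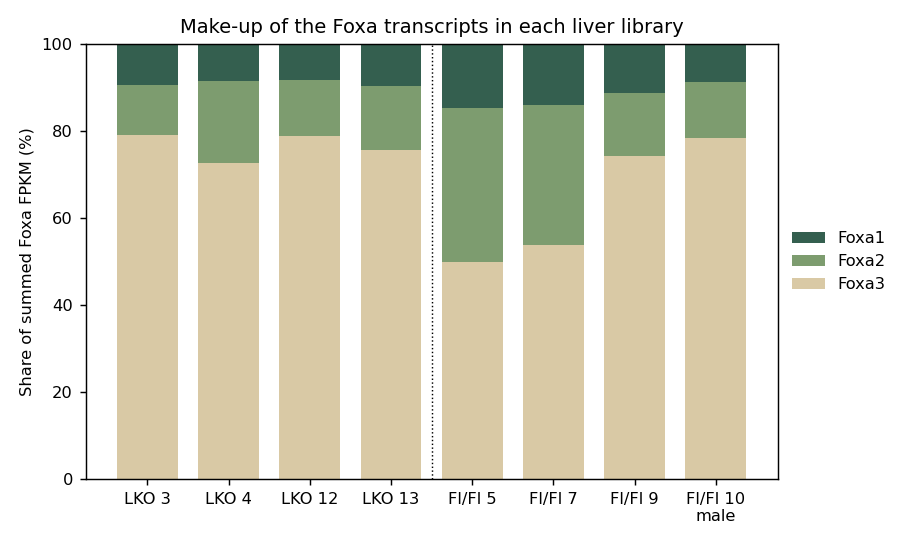
Share of the summed Foxa FPKM (vertical axis, percent) taken by Foxa1, Foxa2 and Foxa3 in each library, with LKO left of Fl/Fl. Foxa3 held 72.7 to 79.2% in LKO, 49.96 and 53.8% in Fl/Fl 5 and 7, 74.3% in Fl/Fl 9 and 78.3% in the male.

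The Foxp genes encode repressors that act as dimers. Foxp1 (chromosome 6, 98925338 to 99522721) stood at 17.95, 23.8, 25.4 and 22.3 CPM in LKO 3, 4, 12 and 13, against 29.6, 26.0 and 31.4 CPM in Fl/Fl 5, 7 and 9 and 27.4 CPM in the male. All LKO values were below all Fl/Fl values, with the highest LKO and the lowest Fl/Fl value a factor of 1.02 apart (log2 -0.37 ± 0.12). Foxp2 (chromosome 6, 14901349 to 15441977) was low in all livers, at 3.63 to 5.84 CPM in LKO, 5.36 to 6.94 CPM in female Fl/Fl and 3.54 CPM in the male (log2 -0.36 ± 0.18). The genotypes overlapped for Foxp2, and its lowest library was the male.

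Foxk1 and Foxk2 encode factors known for restraining autophagy genes in fed cells and for promoting glycolysis. Foxk1 (chromosome 5, 142401497 to 142462011) ranged over 24.1 to 31.9 CPM in LKO and 22.7 to 34.5 CPM in female Fl/Fl, with 26.1 CPM in the male (log2 -0.11 ± 0.15). Foxk2 (chromosome 11, 121259990 to 121309896) ranged over 21.4 to 30.9 CPM in LKO and 22.4 to 26.7 CPM in female Fl/Fl, with 27.8 CPM in the male (log2 0.13 ± 0.13). For each of these genes the range of one female genotype lay inside that of the other.

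Foxn3, a transcriptional repressor linked to hepatic glucose metabolism (chromosome 12, 99190078 to 99563582), was the steadiest of the 10. It ranged over 63.4 to 73.7 CPM in LKO and 65.6 to 75.5 CPM in female Fl/Fl, with 89.5 CPM in the male (log2 -0.05 ± 0.09). Foxj3, a widely expressed activator (chromosome 4, 119537004 to 119629119), stood at 12.5, 12.4, 14.7 and 17.5 CPM in LKO 3, 4, 12 and 13, against 21.3, 19.6 and 15.7 CPM in Fl/Fl 5, 7 and 9 and 15.7 CPM in the male (log2 -0.40 ± 0.15). LKO 13 lay above Fl/Fl 9 and the male, so the groups overlapped.

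Of the 10 genes, 8 had a negative log2 fold change, as did 8298 of the 16420 tested genes. Foxq1 and Foxa1 were past the adjusted p of 0.05, both lower, where 1.41% of all tested genes were past it in either direction and 0.396% as lower. Foxq1, Foxa1 and Foxp1 had all 4 LKO values below all 4 Fl/Fl values, which held for 2.11% of tested genes, and for 4.44% in either direction. The same 3 genes separated LKO from the 3 female Fl/Fl livers, as 15.1% of tested genes did in either direction. Because the genes were named with results of this contrast known, nothing is read from these counts. The count past the threshold ran from 0 to 4 when a library was left out: 0 without Fl/Fl 5, LKO 12 or LKO 13, 1 (Foxq1) without LKO 3, LKO 4 or Fl/Fl 7, and 4 without Fl/Fl 9, when Foxa2 and Foxa3 joined.

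**Figure D3:**
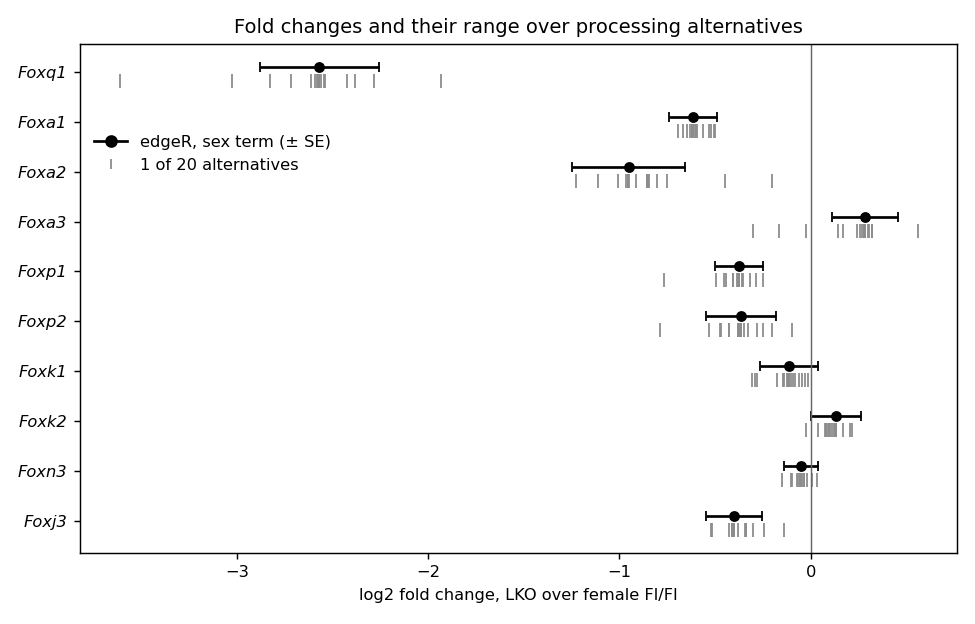
Log2 fold change of LKO over female Fl/Fl (horizontal axis) for the 10 genes, as points with bars of 1 SE, with grey ticks for the 20 alternative settings. Foxq1 stands at -2.57 with ticks from -3.61 to -1.94, whereas the ticks of Foxa3 span 0, from -0.30 to 0.56.

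Per gene length, Foxa3 was the highest of the 10, at 28.7 ± 8.36 FPKM over the 8 libraries (SD), and its lowest library was above the highest of the next gene. Foxa2 (7.55 ± 3.31), Foxn3 (6.42 ± 0.78), Foxk2 (5.08 ± 0.68), Foxq1 (4.59 ± 4.02), Foxa1 (4.24 ± 1.01) and Foxk1 (3.92 ± 0.61 FPKM) followed. Neighbours in this run overlapped in their library values, so they did not differ beyond their spread. Foxp1 (1.93 ± 0.32) and Foxj3 (1.53 ± 0.30 FPKM) overlapped with each other and lay below Foxk1, and Foxp2 was the lowest at 0.33 ± 0.08 FPKM, below Foxj3 in every library pair.

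Foxq1 changed its place in this order more than any other of the 10. It ranked 8 by mean FPKM in LKO, at 1.47 ± 0.39 FPKM, and 3 in female Fl/Fl livers, at 8.76 ± 3.29 FPKM. Foxa2 ranked 3 in LKO and 2 in female Fl/Fl. Foxa1 ranked 6 in LKO and 5 in female Fl/Fl. Over the 8 libraries the coefficient of variation of CPM was 87.4% for Foxq1, 44.0% for Foxa2 and 28.9% for Foxa3, and the lowest was 12.1% for Foxn3.

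**Figure D4:**
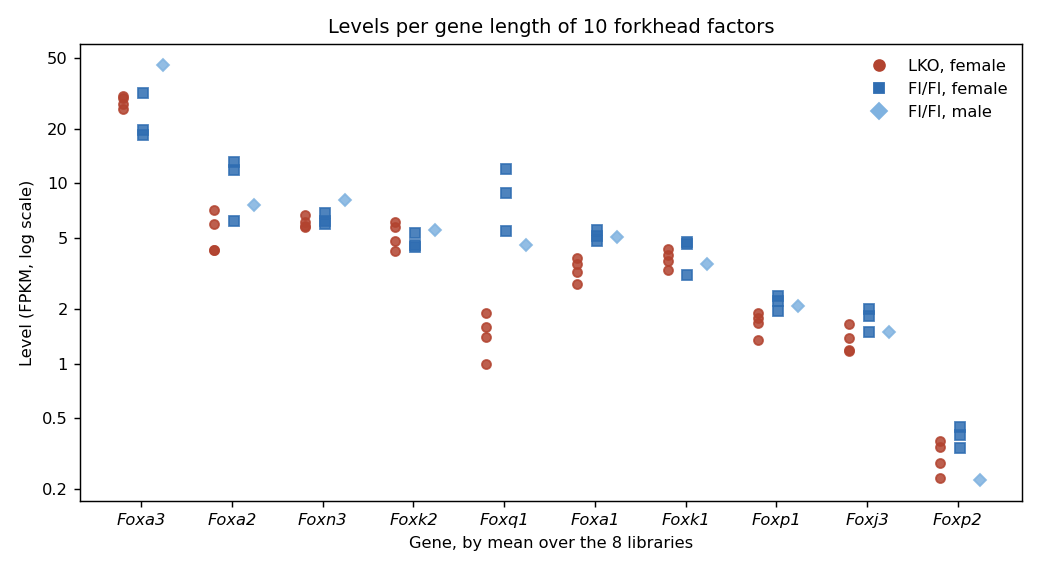
FPKM (log axis) of the 10 genes in each library, in order of their mean over the 8 libraries, with LKO left of female and male Fl/Fl for each gene. Foxa3 lies above all others at 18.6 to 45.6 FPKM and Foxp2 below all others at 0.23 to 0.44 FPKM, and the LKO points of Foxq1 lie at 0.99 to 1.91 FPKM.

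Other measures also differed between the libraries. The immediate early genes, which respond quickly to stimulation and handling, summed to 874 to 1675 CPM in LKO, 2227 to 4155 CPM in female Fl/Fl and 683 CPM in the male; 19 of the 20 had a negative log2 fold change. Fos, which pairs with Jun in AP-1, stood at 12.7, 7.64, 6.76 and 4.87 CPM in LKO 3, 4, 12 and 13, against 297.5, 264 and 30.7 CPM in Fl/Fl 5, 7 and 9 and 4.78 CPM in the male. Of the 20, 2 fell by the edgeR test, Jun and Junb, where 0.396% of all tested genes fell. An unadjusted p under 0.05 was found for 11 of the 20 and for 16.1% of all tested genes. DESeq2 called 9 of the 20 lower and 0 higher, Fos among them, where it called 5.36% of the 15010 genes to which it gave an adjusted p. Jun stood at 83.3 ± 24.2 CPM in LKO and 439 ± 171 CPM in female Fl/Fl, and 43.9 CPM in the male (adjusted p = 0.0369, lost without LKO 3, 4, 12 or 13 or Fl/Fl 5 or 7), and Junb had an adjusted p of 0.00127 with edgeR.

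The Fl/Fl livers with the highest Fos, 5 and 7, were those with the highest Foxa2 and the lowest Foxa3. They were also the Fl/Fl livers with the most Arntl, a clock gene given below, so Fos and clock phase cannot be told apart here. The male Fl/Fl liver had the least summed immediate early RNA and held 21.0 CPM of Foxq1 and 16.1 CPM of Foxa1; it is the only male library. With a term for an immediate early index in the fit, Foxq1 stood at log2 -3.61 ± 0.55. In that fit Foxa1 stood at -0.51 ± 0.29, Foxa2 at -0.45 ± 0.84 and Foxa3 at -0.30 ± 0.29. No tested gene, Foxq1 and Foxa1 included, was past the threshold with this term. The index (Fos, Egr1, Ier2, Atf3 and Btg2) was 0.09, -0.77, -0.72 and -1.23 in LKO 3, 4, 12 and 13. In Fl/Fl 5, 7 and 9 it was 1.99, 1.54 and 0.71. It did not overlap between the female genotypes, so this fit separates genotype from the index poorly. The standard errors of the genes named here were wider than without the term. The loss of every call therefore cannot show what the index accounts for. What part the immediate early state had in the levels of the forkhead genes was not tested.

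The clock gene Arntl, an activator of the circadian cycle, split the livers across genotypes. It stood at 30.3 and 26.6 CPM in LKO 3 and 4, against 39.7 and 29.5 CPM in Fl/Fl 5 and 7, and at 5.32 and 8.31 CPM in LKO 12 and 13, against 8.52 and 3.98 CPM in Fl/Fl 9 and 10. Dbp, a clock output gene of the opposite phase, stood at 0.61 and 1.64 CPM in LKO 3 and 4, against 2.46 and 3.50 CPM in Fl/Fl 5 and 7, and at 54.4 and 42.2 CPM in LKO 12 and 13, against 26.9 and 46.1 CPM in Fl/Fl 9 and 10. In the livers with high Arntl, Foxq1 stood at 4.61 and 8.94 CPM in LKO, against 41.3 and 25.4 CPM in Fl/Fl. In those with low Arntl it stood at 6.56 and 7.38 CPM in LKO, against 55.7 and 21.0 CPM in Fl/Fl, the last value being that of the male. Foxa2 stood at 30.0 and 27.3 CPM in the high-Arntl Fl/Fl livers, against 14.1 and 17.3 CPM in the low-Arntl ones. Foxa3 stood at 36.5 and 39.1 CPM there, against 62.2 and 89.1 CPM. The LKO livers did not split this way. Foxa2 was at 9.68 and 16.2 CPM with high Arntl and 9.75 and 13.6 CPM with low. Foxa3 was at 58.1 and 54.0 CPM with high Arntl and 51.3 and 59.9 CPM with low. A clock index was taken as Arntl, Npas2 and Clock less Dbp, Tef, Nr1d1, Nr1d2 and Per3. With a term for this index in the fit, Foxq1 stood at log2 -2.59 ± 0.32 and Foxa1 at -0.60 ± 0.12. Foxa2 stood at -0.85 ± 0.30 and Foxa3 at 0.28 ± 0.16 in that fit. It put 333 genes past the threshold, Foxq1 and Foxa1 among them. What part clock phase had in the forkhead levels was not tested.

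Cholangiocyte markers also differed between LKO and female Fl/Fl livers, at a summed 118 to 148 CPM in LKO and 183 to 209 CPM in female Fl/Fl. The male Fl/Fl liver, at 127 CPM, lay inside the LKO range. Of the 10 tested markers 9 had a negative log2 fold change, with a median of -0.25. By the edgeR test 1 fell, Onecut2, which held most of the sum, where 0.396% of all tested genes fell. Onecut2 is also given below as a factor of hepatobiliary cells, so this sum does not stand for duct cells alone. The tight junction gene Cldn4 was at 0 in the male. The part of duct cells in the forkhead levels was not tested.

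Among transcription factors that act with Foxa in liver, 0 of 20 rose, 2 fell and 18 did not pass, where 1.41% of all tested genes passed. Their median log2 fold change was -0.31, against -0.0032 over all tested genes. Hhex, a homeobox factor of liver and bile duct development, stood at 13.8, 17.0, 24.2 and 27.8 CPM in LKO 3, 4, 12 and 13, against 63.1, 93.4 and 56.6 CPM in Fl/Fl 5, 7 and 9 and 78.7 CPM in the male. Every LKO liver was below every Fl/Fl liver (log2 -1.78 ± 0.28, edgeR adjusted p = 0.0382), and the call was lost without LKO 4 or 12 or Fl/Fl 5 or 7. Onecut2, a cut-homeobox factor of hepatobiliary cells, averaged 75.4 ± 13.5 CPM in LKO and 121 ± 6.72 CPM in female Fl/Fl (log2 -0.68 ± 0.13, edgeR adjusted p = 0.0342). The male Fl/Fl liver held 70.1 CPM of Onecut2, inside the LKO range, and the call was lost without LKO 3, 4 or 12 or Fl/Fl 5 or 7. Of these 20 genes, 13 had an unadjusted p under 0.05, against 16.1% of all tested genes. DESeq2 called 3 higher and 8 lower, against 5.36% of genes in either direction.

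Of 20 tested hepatocyte genes with known Foxa sites in their regulatory regions, 0 passed the edgeR test, 6 had an unadjusted p under 0.05 (16.1% of all tested genes did), and DESeq2 called 2 higher and 0 lower (5.36% of all genes either way). Their median log2 fold change was 0.12, and 6 of 20 were negative. Tat, the tyrosine-degrading enzyme, averaged 4305 ± 793 CPM in LKO and 2859 ± 391 CPM in female Fl/Fl, and 3852 CPM in the male (log2 0.59 ± 0.15, edgeR adjusted p = 0.0919). Pck1, which commits carbon to gluconeogenesis, averaged 5552 ± 869 CPM in LKO and 4010 ± 372 CPM in female Fl/Fl, and 4377 CPM in the male (log2 0.47 ± 0.14, edgeR adjusted p = 0.119).

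In the list of gluconeogenic genes under Foxo1 and Foxq1, 0 of 7 passed with edgeR. An unadjusted p under 0.05 was found for 4 of the 7 and for 16.1% of all tested genes, and DESeq2 called 2 of the 7 higher and 5.36% of all genes. The median log2 fold change was 0.42, with 2 of 7 negative. Pck1 is in this list too. Ppargc1a, a coactivator of the fasting response, stood at 27.2, 60.2, 32.0 and 35.6 CPM in LKO 3, 4, 12 and 13, against 19.8, 18.3 and 16.6 CPM in Fl/Fl 5, 7 and 9 and 33.2 CPM in the male. The LKO livers lay above the female Fl/Fl livers but on both sides of the male (log2 1.09 ± 0.27, edgeR adjusted p = 0.114, and past the threshold without LKO 4).

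Of 12 genes of epithelial plasticity that have been linked to Foxq1, 0 passed with edgeR. An unadjusted p under 0.05 was found for 3 of the 12, a share near the 16.1% of all tested genes, and DESeq2 called 3 of the 12 lower and 5.36% of all genes. The median was -0.17, and 10 of 12 were negative. Smad3, a signal carrier of the TGF-beta receptors, averaged 13.3 ± 2.64 CPM in LKO and 20.1 ± 1.07 CPM in female Fl/Fl, and 17.2 CPM in the male (log2 -0.59 ± 0.15, edgeR adjusted p = 0.0880). Zeb2, a repressor of epithelial genes, averaged 14.0 ± 0.51 CPM in LKO and 17.7 ± 0.36 CPM in female Fl/Fl (log2 -0.33 ± 0.09, edgeR adjusted p = 0.104). The male held 8.34 CPM of Zeb2, below all LKO livers.

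Corepressors that bind Foxa, Foxp and Foxk proteins gave 1 edgeR call among 19 tested genes, where 1.41% of all tested genes were called. Their median was 0.02. An unadjusted p under 0.05 was found for 8 of the 19 and for 16.1% of all tested genes. DESeq2 called 1 higher and 2 lower, against 5.36% of all genes in either direction. Aes, a short relative of the Groucho corepressors, rose to 517 ± 29.0 CPM in LKO, against 377 ± 23.3 CPM in female Fl/Fl, with 576 CPM in the male (log2 0.45 ± 0.09, edgeR adjusted p = 0.0399). The call was lost in 10 of the 20 alternatives, among them without any 1 LKO library or without Fl/Fl 5 or 7. Of 14 glycolysis genes linked to Foxk factors, 1 rose by the edgeR test, against 1.41% of all tested genes called, and the median was 0.12. An unadjusted p under 0.05 was found for 4 of the 14, against 16.1% of all tested genes. DESeq2 called 2 of the 14 higher, against 5.36% of all genes in either direction. Pfkl, the liver form of phosphofructokinase, stood at 36.1 ± 1.51 CPM in LKO and 25.4 ± 0.29 CPM in female Fl/Fl, with 39.3 CPM in the male (log2 0.50 ± 0.08, edgeR adjusted p = 0.0175, lost without LKO 4 or Fl/Fl 5 or 7).

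Of the 19 other forkhead genes, 12 could be tested, and 1 rose by the edgeR test while 11 did not pass (median log2 0.13). That test called 1.41% of all tested genes. An unadjusted p under 0.05 was found for 6 of the 12 and for 16.1% of all tested genes. DESeq2 called 2 higher, Foxo1 and Foxo3, against 5.36% of all genes in either direction. The edgeR call was Foxo1, the insulin-restrained factor of the fasting response, at 113 ± 12.7 CPM in LKO and 59.8 ± 3.77 CPM in female Fl/Fl, with 85.3 CPM in the male (log2 0.92 ± 0.11, edgeR adjusted p = 0.00859, lost without Fl/Fl 5). Foxo3, a relative of Foxo1 named after its values were seen, stood at 199, 210, 271 and 289.7 CPM in LKO 3, 4, 12 and 13, against 61.9, 60.0 and 137 CPM in Fl/Fl 5, 7 and 9 and 196 CPM in the male. All LKO values lay above all Fl/Fl values, by little over the male (log2 1.49 ± 0.34, edgeR adjusted p = 0.104). Within each genotype Foxo3 was lower in the livers with high Arntl than in those with low Arntl. Over the 20 alternatives its log2 fold change ran from 0.19 to 1.99 and its adjusted p from 0.000641, without Fl/Fl 9, to 0.927. Foxq1 and Foxo1 differed between the genotypes in opposite directions.

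The genes whose pattern over the 8 libraries lay closest to that of Foxq1 were found by the root mean square difference of centred log2 CPM, among 12336 genes with a mean of at least 1 CPM. They were Cish (0.63), Junb (0.64), the predicted gene Gm35570 (0.68), Hhex (0.68) and Socs3 (0.68). Cish and Socs3 encode feedback inhibitors of cytokine receptors. Cish stood at 5.99, 5.55, 6.95 and 4.35 CPM in LKO 3, 4, 12 and 13, against 22.8, 14.3 and 28.5 CPM in Fl/Fl 5, 7 and 9 and 5.86 CPM in the male. The female Fl/Fl livers kept the order of Foxq1, with 9 highest and 7 lowest, whereas the male lay within the LKO range. Of the 5, Hhex and Socs3 had the male above every LKO liver.

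For Foxa1 the nearest genes were Cxxc5 (0.11), Rad1 (0.11), Gm10033 (0.12), Zfp758 (0.12) and Mier3 (0.13). Their distances were smaller than those around Foxq1, whose own values spread more widely over the libraries. Cxxc5, a zinc finger protein gene, averaged 30.3 ± 2.995 CPM in LKO and 44.6 ± 2.81 CPM in female Fl/Fl, and 42.8 CPM in the male. These genes were picked for their likeness, so their own difference between the genotypes follows from the choice.

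**Figure D5:**
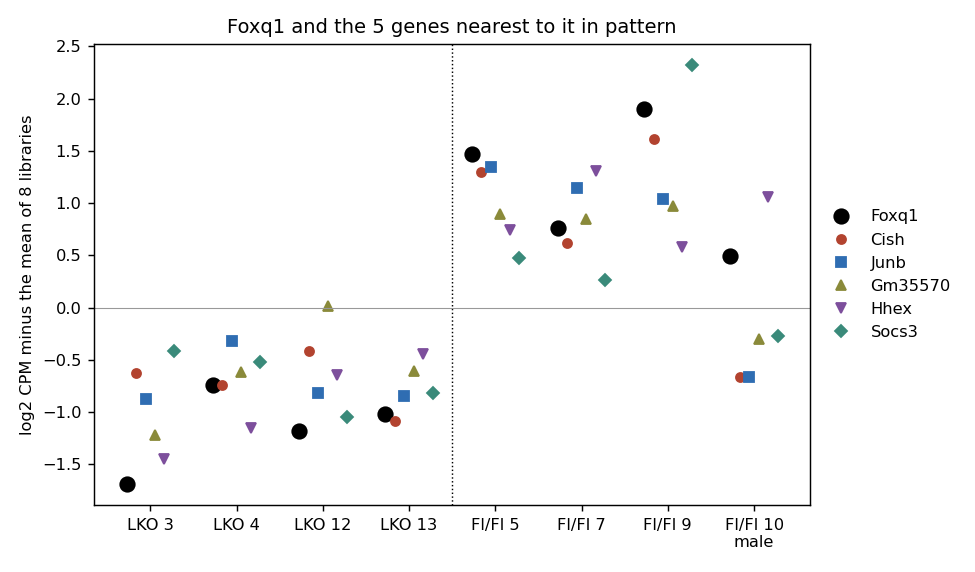
Log2 CPM minus the mean of the 8 libraries (vertical axis) for Foxq1 and the 5 genes nearest to it, by library, with LKO left of Fl/Fl. Foxq1 lies below 0 in each LKO library and above 0 in each Fl/Fl library, while in the male Cish, Junb, Gm35570 and Socs3 lie below 0 and Foxq1 and Hhex above it.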

How the data were processed

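Total RNA of 8 mouse livers (4 LKO, 3 female and 1 male Fl/Fl) was extracted with a column kit and made into NEBNext Ultra libraries, per the labels' protocols. The submitters' processing notes list STAR, fastp, featureCounts, HTSeq, edgeR, DESeq and DESeq2, with no version or role, and build mm10; annotation release and strand setting are not given in the sources used here. A table of 27110 genes was deposited with whole-number read counts, a normalised signal (counts over size factors, not used here), FPKM from counts and gene length, and their own log2 fold change with its p-value and adjusted p-value.

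The deposited counts were tested in edgeR 4.0.16 (R 4.3.3): filterByExpr (16420 genes), TMM, robust quasi-likelihood F test, terms for genotype and sex, Benjamini-Hochberg adjustment over all tested genes, threshold 0.05, two-sided. The biological coefficient of variation was 20.4%. CPM use TMM-scaled library sizes. No 2 libraries of the same genotype were alike: the lowest chi-square per degree of freedom among such pairs was 31.9 (Fl/Fl 5 and 7). Pairs across genotypes were not compared. Tested on simulated data for this comparison (16420 genes, 200 changed), the fit found 82% of log2 changes of 1 and 100% of log2 changes of 2, with 8.08% of calls false. Gene models and overlaps came from GENCODE M21. Alternatives, described with the sensitivity of the results, used DESeq2 1.42.0 and limma 3.58.1.

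The members, gene lists, alternatives and naming rule were chosen with earlier results of these data known. The rule names the 10 members, other forkhead genes past the threshold, list genes past it (or else the 2 with the smallest p), the neighbours of Foxq1, the 5 genes nearest in pattern to each called member (CPM offset 0.01), Pkd1l1, and Fos, Jun, Junb, Arntl and Dbp. Cldn4 and Foxo3 are outside the naming rule: their values were known when they were chosen. The listed symbols Tf and Tle5 matched no row, because the deposited data use other symbols for these genes.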

Additional observations from a re-analysis of the deposited data

Results flagged for a closer look

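Of 68 groups of 4 libraries examined (34 named genes in LKO and in Fl/Fl), 5 had a library far from the other 3; chance gives about 1 in 20. None of the 20 groups of the forkhead genes did. The male Fl/Fl liver stood apart in 3. It held 8.34 CPM of Zeb2 where the other Fl/Fl livers held 17.3 to 17.9 CPM, 39.3 CPM of Pfkl where they held 25.2 to 25.8 CPM, and 3.69 CPM of Gm35570 where they held 8.22 to 8.96 CPM. LKO 4 held 63.2 CPM of Junb, the other LKO livers 43.0 to 44.7 CPM. Fl/Fl 9 held 37.1 CPM of Socs3, the other Fl/Fl livers 6.16 to 10.3 CPM.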

How the results depend on the processing

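The number of genes past the threshold (232) was 1 without a sex term (1317 at an unadjusted p under 0.05), 462 with no filter beyond 1 read, 804 with DESeq2, 140 with limma on log2(FPKM + 1), 26 with Fl/Fl 5 and 7 both left out and 0 with an immediate early term (1304 at an unadjusted p under 0.05; no other tool was run with this term). It ran from 4 (without Fl/Fl 5) to 727 (without Fl/Fl 9) when a library was left out, and was 202 to 333 in the other settings. Of the 10 forkhead genes, 2 were past the threshold; this became 0 without a sex term or with an immediate early term, 1 with limma on FPKM or with Fl/Fl 5 and 7 left out, 3 with DESeq2 (Foxa2 added) and 0 to 4 over the left-out libraries. The Foxq1 log2 fold change moved to -1.94 with limma on FPKM, where the pseudocount of 1 shrinks low genes by construction, and to -3.61 with the immediate early term; it ran from -2.83 to -2.28 over the left-out libraries. For the moves with other terms and samples the cause was not tested. The immediate early index did not overlap between the female genotypes, so the fit with that term separates it from genotype poorly. No called gene named here reversed: over the named genes that are not among the 10, 389 of the alternative values kept their side of the threshold, 67 lost it and 24 gained it. These counts hold both the female-only fit and the identical fit without the male library. No paired analysis was run, because the genotypes share no replicate number and the labels state no litters or preparations. The split of the livers by clock phase entered only the setting with a clock phase term. With Fl/Fl 5 and 7 left out, 1 female Fl/Fl library is assumed to vary like the others. Depth limits Foxc1 and Pkd1l1, not the 10 genes.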
